A study of Mus musculus with 6 samples.

Results

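Transcripts that mark stromal fibroblasts and their extracellular matrix were followed between 2 sorted populations of mouse ovarian surface epithelium, 10 genes of 22180 named genes on the array. They were taken by gene symbol, as fibroblast markers other than collagens: Dcn, Lum, Ogn, Mfap4, Mfap5, Pdgfra, Thy1, Cd34, Postn and Dpt. Each had 1 probe set that the platform annotation pairs with it alone, and 1 further probe set was paired with both Cd34 and Gm16897. The cells came from untreated female mice, 8 to 12 weeks old, of the genotype Lgr5-eGFP-CreERT2, in which EGFP and a tamoxifen-inducible Cre are expressed from the Lgr5 locus. They were sorted into a population with high EGFP (EGFP-high, 3 arrays) and a population with low EGFP (EGFP-low, 3 arrays), with 8 mice pooled for each array. Every mouse carried the same allele, so both populations come from knock-in animals and EGFP-low cells are the only comparator. The series calls the 3 arrays of a population technical replicates, so the spread between them may be technical and the p-values below do not measure variation between animals.

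Decorin, lumican and osteoglycin are small leucine-rich proteoglycans, secreted proteins that coat collagen fibrils and set their width and spacing. Microfibril-associated proteins decorate the fibrillin scaffold on which elastic fibres are built, while periostin and dermatopontin link cells and collagen in the matrix. Fibroblasts are commonly recognised by these products together with the surface proteins PDGFRA, THY1 and CD34, whereas the surface epithelium of the ovary is a layer of mesothelial-type cells lying on a collagenous stroma.

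Values are the deposited log2 expression values, and differences are EGFP-high minus EGFP-low in log2 units. Array medians lay between 3.76 and 3.85. The 6 columns obey 2 exact linear relations and hold 4 independent dimensions. One relation makes the array EGFP-high 2 the mean of EGFP-high 1 and EGFP-high 3, which narrows the SD of that population. The other fixes EGFP-low 1 from EGFP-low 2, EGFP-low 3 and the difference between EGFP-high 3 and EGFP-high 1. Together they make each difference of population means equal to EGFP-high 3 minus EGFP-low 1. The fit therefore carried, beside the population, a term for 3 array sets inferred from those relations and named in no label: EGFP-high 1 with EGFP-low 1, EGFP-high 3 with EGFP-low 2 and EGFP-low 3, and EGFP-high 2 alone. Lgr5, the locus sorted on, was at 8.97 ± 0.03 in EGFP-high and 7.87 ± 0.13 in EGFP-low arrays (SD, n = 3 each). All 15 surface epithelial and mesothelial markers measured had a mean above the median gene, and 14 of them were above 0 in the difference, with a median of 0.24.

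Cd34 and Ogn were the members that stood furthest apart, each at less than 0.5 of its EGFP-low level in EGFP-high cells, while Thy1 lay on the other side of 0. None of the 10 members passed the adjusted threshold (limma with the array-set term, Benjamini-Hochberg over all named genes, 0.05), where 0.00451% of all genes did. With population as the only term limma called 3 members, Cd34 and Postn lower and Thy1 higher, against 6.67% of all genes. That fit counts 4 residual degrees of freedom, whereas the column relations leave 2. In the difference, 8 members lay below 0 and 2 above, with a median of -0.24, beside 46.2% of all genes below 0 and a median of 0.02. Lower by 1.5-fold or more were 2 members (2.7% of all genes), and none was higher by as much (2.19% of all genes).

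**Figure D1:**
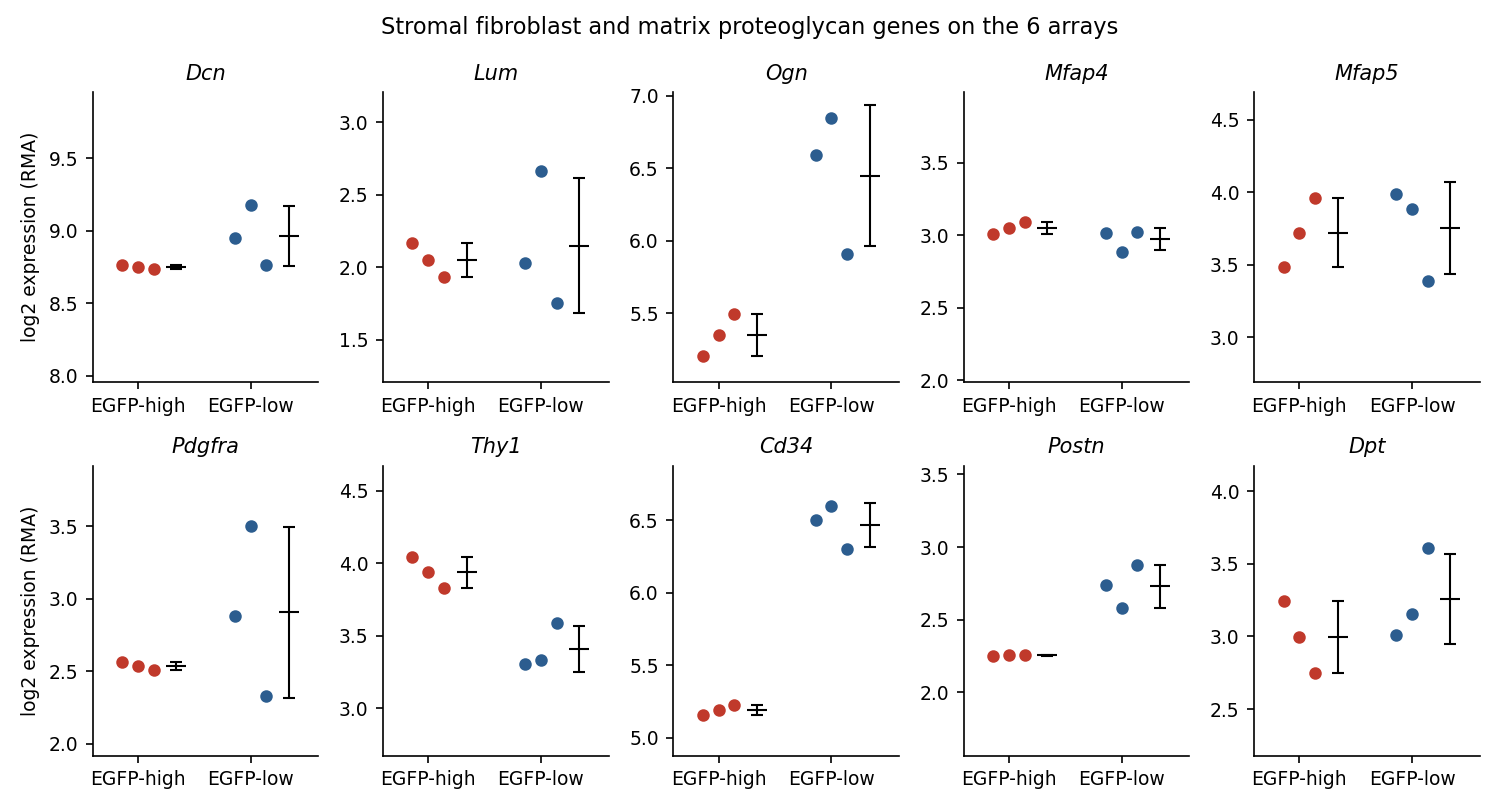
Log2 expression of the 10 members, with EGFP-high arrays in red on the left and EGFP-low arrays in blue on the right. Points are arrays 1 to 3 of each population, black marks are the mean and SD, and every panel spans 2 log2 units. Cd34, Ogn and Postn sit lower in EGFP-high arrays with no overlap, Dcn nearly touches its EGFP-low range, and Thy1 sits higher.

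CD34, a sialomucin of the cell surface, is found on haematopoietic progenitors, vessel endothelium and many interstitial fibroblasts. Its probe set read 5.16, 5.19 and 5.23 in EGFP-high arrays, against 6.50, 6.60 and 6.30 in EGFP-low arrays. The populations were separated by a gap of 1.07, against ranges of 0.07 within EGFP-high and 0.30 within EGFP-low arrays. The column relations constrain both ranges, so they are not a free measure of spread. The difference was -1.27 (95% limits -1.76 to -0.79), which is 0.414 of the EGFP-low level (limits 0.296 to 0.578). The limma adjusted p was 0.751 with the array-set term, although only 6 of the 22180 genes had a smaller unadjusted p (3.21e-04). EGFP-high 1 minus EGFP-low 1 gave -1.34, and EGFP-high 3 minus the mean of EGFP-low 2 and EGFP-low 3 gave -1.22. By the column relations these within-set contrasts differ only by a multiple of EGFP-high 1 minus EGFP-high 3, so they are not independent of each other. In the authors' deposited table the ratio of high over low for this probe set was 0.433. The probe set shared with Gm16897 gave 2.95 ± 0.02 in EGFP-high and 3.02 ± 0.08 in EGFP-low arrays (SD, n = 3 each), a difference of -0.07 (-0.58 to 0.44) in a fit over all probe sets, and cannot be assigned to Cd34. Podxl, which encodes podocalyxin of the same sialomucin family, was on the opposite side at 0.42 (-0.07 to 0.91), and Podxl2 had no probe set of its own. In these bulk samples fewer cells of a type and less RNA per cell cannot be told apart.

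The Cd34 promoter, from 250 bases before the annotated start to 50 from it, is shown because this gene had the largest difference of the 10 (RefSeq, GRCm38.p6, chr1:194938571-194938870, plus strand). For 5 short motifs, searched on both strands, matches would stand in capitals. They were the TATA box (TATAAA), the CCAAT box, the GC box (GGGCGG), the AP-1 site (TGANTCA) and the TCF/LEF site (CTTTGAT). None of these letters occurred in it. Of 32544 promoters of the same length, 13.57% hold the TATA box letters, 37.36% CCAAT, 35.88% the GC box, 7.79% the AP-1 letters and 3.73% the TCF/LEF letters.
Cd34: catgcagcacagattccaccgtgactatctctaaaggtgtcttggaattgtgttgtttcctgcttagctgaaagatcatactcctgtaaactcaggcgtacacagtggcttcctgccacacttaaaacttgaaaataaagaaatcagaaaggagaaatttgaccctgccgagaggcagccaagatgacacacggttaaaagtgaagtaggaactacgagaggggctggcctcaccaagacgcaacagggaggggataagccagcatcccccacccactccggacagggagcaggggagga

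Among the 3 proteoglycan members, Ogn was the 1 with limits wholly below 0. Osteoglycin, also called mimecan, read 5.21, 5.35 and 5.50 in EGFP-high arrays, against 6.59, 6.84 and 5.91 in EGFP-low arrays. EGFP-low 3 lay nearest to the EGFP-high arrays, 0.41 above the highest of them. The difference was -1.10 (limits -1.81 to -0.38), or 0.467 of the EGFP-low level, with a limma adjusted p of 0.772. The first within-set contrast was -1.39 and the second -0.88. Without EGFP-high 1 or EGFP-low 1, which with the array-set term are the same fit, the upper limit reached 0.06. The authors' deposited table has a ratio of 0.4415 for Ogn.

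The Ogn promoter is set beside that of Cd34 as the other member lower by more than 1.5-fold (RefSeq, GRCm38.p6, chr13:49607765-49608064, plus strand). Its capitals mark overlapping TATAAA matches on both strands, the nearer of which begins 227 bases before the annotated start, and none of the other 4 motifs occurred. The Cd34 window held no searched motif, so no motif could be shared, whatever the Ogn window held, and the windows cannot be compared this way. The GC content of the Ogn window was 42.3%, against a median of 53.0% over all promoters.
Ogn: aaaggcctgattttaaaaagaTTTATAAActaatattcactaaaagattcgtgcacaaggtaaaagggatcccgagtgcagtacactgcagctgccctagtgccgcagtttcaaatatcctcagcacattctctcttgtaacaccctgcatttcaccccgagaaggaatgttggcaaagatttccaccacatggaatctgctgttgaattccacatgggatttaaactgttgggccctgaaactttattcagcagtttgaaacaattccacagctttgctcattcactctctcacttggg

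Dcn, whose product decorin binds collagen fibrils and TGF-beta, was bright in every array. It read 8.76, 8.75 and 8.73 in EGFP-high arrays, against 8.95, 9.18 and 8.77 in EGFP-low arrays. The populations did not overlap, but the gap was only 0.0044, between EGFP-high 1 and EGFP-low 3. The difference was -0.22 (limits -0.72 to 0.29; limma adjusted p 0.920). Lum, which encodes the keratan sulfate proteoglycan lumican, was dim at 2.05 ± 0.12 in EGFP-high and 2.15 ± 0.47 in EGFP-low arrays (SD, n = 3 each). Its arrays overlapped, the difference was -0.10 (-0.79 to 0.60), and the 2 within-set contrasts had opposite signs.

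Of the 13 other small leucine-rich proteoglycan genes measured, Bgn came closest to Ogn. Biglycan, the nearest relative of decorin, read 8.03, 7.98 and 7.94 in EGFP-high arrays, against 8.77, 8.80 and 8.88 in EGFP-low arrays. No array overlapped, and the difference was -0.83 (-1.29 to -0.38). Limma called this probe set with population alone (adjusted p 0.0151) and not with the array-set term (0.751). A further Bgn probe set, in the fit over all probe sets, was at -0.81 (-1.53 to -0.10). The authors' deposited table lists Bgn with ratios of 0.580 and 0.509. The remaining 12 had limits that span 0: Podnl1 -0.51, Podn -0.43, Chad -0.34, Ecm2 -0.28, Optc -0.16, Nyx -0.10, Omd -0.09, Kera 0.01, Epyc 0.02, Fmod 0.07, Aspn 0.17 and Prelp 0.42. Further probe sets, in the fit over all probe sets, were at 0.08 (-0.74 to 0.91) for Prelp and -0.15 (-0.74 to 0.44) for Fmod. Across the 13, 8 were below 0 and the median was -0.10.

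Several of these genes are neighbours in the genome. In the RefSeq gene table Dcn is followed on chromosome 10 by Lum, Kera and Epyc, whose differences were -0.22, -0.10, 0.01 and 0.02. On chromosome 13 Ecm2, Aspn and Omd precede Ogn, with -0.28, 0.17, -0.09 and -1.10 in that order. Of the 4 genes on chromosome 13, Ogn was the 1 whose limits leave out 0. The means of those 3 in EGFP-high arrays were 2.38, 2.59 and 2.496, against 2.66, 2.42 and 2.59 in EGFP-low arrays, all in the dim range.

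**Figure D2:**
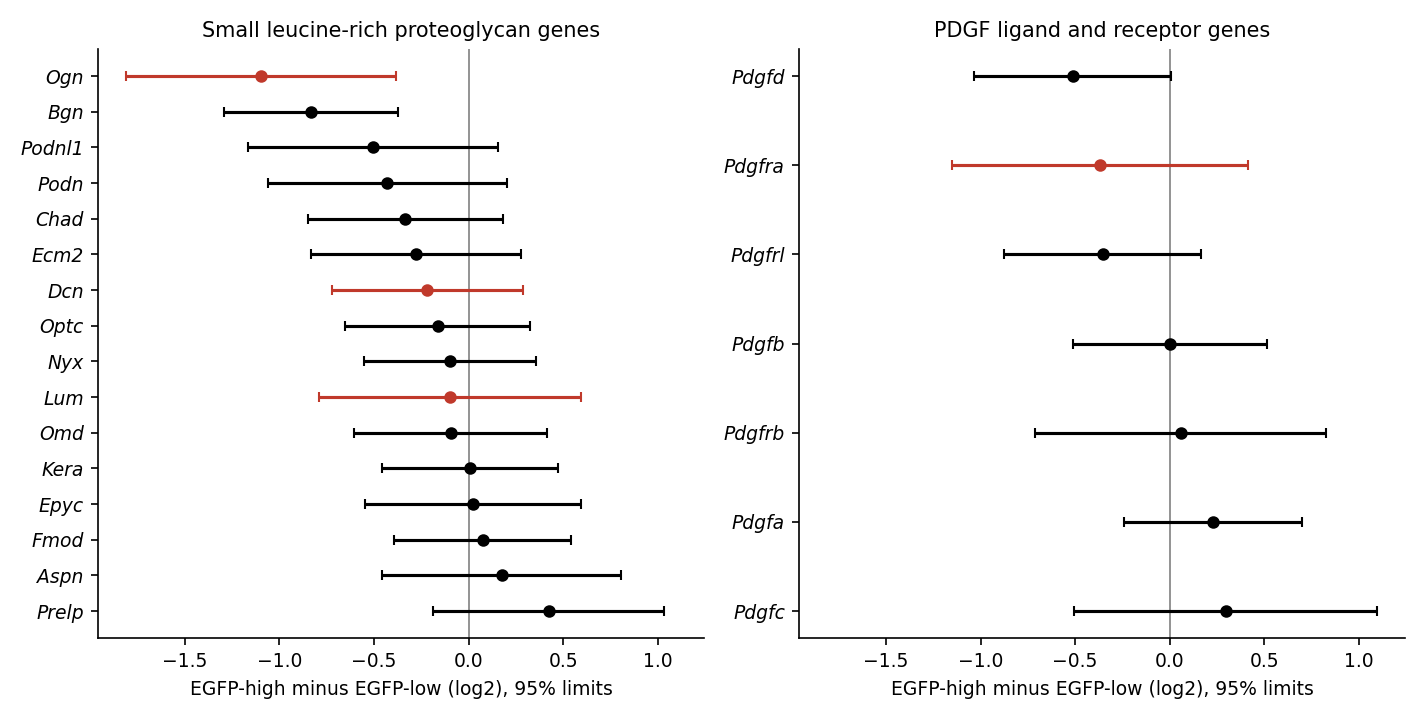
Differences (EGFP-high minus EGFP-low, log2) with 95% limits from limma with the array-set term, for small leucine-rich proteoglycan genes on the left and PDGF ligand and receptor genes on the right. Members are red and other genes black. Ogn (-1.10) and Bgn (-0.83) are the proteoglycan genes whose limits lie wholly below 0, and no PDGF gene has limits that leave out 0.

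The arrays of both microfibril members overlapped between the populations. Mfap4, whose product binds elastin and collagen, read 3.01, 3.05 and 3.09 in EGFP-high arrays, against 3.02, 2.88 and 3.02 in EGFP-low arrays. The arrays interleaved, and the difference was 0.07 (-0.39 to 0.54; limma adjusted p 0.973). Mfap5, a fibrillin-binding glycoprotein, read 3.49, 3.72 and 3.96 in EGFP-high arrays, against 3.99, 3.88 and 3.39 in EGFP-low arrays. Its difference was -0.03 (-0.66 to 0.59), made up of -0.50 in the first within-set contrast and 0.32 in the second. The sign of that difference turned when each array was centred on its median (0.02) or quantile normalised (0.02).

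The 16 other microfibril and elastic fibre genes measured had 9 below 0, 7 above and a median of -0.02. Ltbp1, a latent TGF-beta binding protein carried on microfibrils, was the 1 gene of the list with limits wholly below 0. It read 3.52, 4.09 and 4.67 in EGFP-high arrays, against 6.66, 6.34 and 5.25 in EGFP-low arrays, a difference of -1.99 (-3.10 to -0.88; limma adjusted p 0.751). Its relative Ltbp2 was at 0.40 (-0.14 to 0.93). Mfap2, the paralogue of Mfap5, was at -0.35 (-0.88 to 0.19), and Emilin1, an elastic fibre interface protein, at 0.50 (-0.12 to 1.12).

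Pdgfra encodes the receptor tyrosine kinase for PDGF-A and PDGF-C chains that marks many mesenchymal cells. It read 2.56, 2.54 and 2.51 in EGFP-high arrays, against 2.88, 3.50 and 2.33 in EGFP-low arrays. EGFP-low 3 lay below every EGFP-high array and EGFP-low 2 far above, so the populations overlapped. The difference was -0.37 (-1.15 to 0.41; limma adjusted p 0.904). Of 6 other genes of the system, Pdgfd, a ligand that acts chiefly through the beta receptor, was at -0.51 (-1.03 to 0.01), with 6.38 ± 0.12 in EGFP-high and 6.89 ± 0.20 in EGFP-low arrays (SD, n = 3 each). The ligands Pdgfa, Pdgfb and Pdgfc were at 0.23, 0.00 and 0.30. The receptor Pdgfrb was at 0.06 (-0.71 to 0.83) and the receptor-like gene Pdgfrl at -0.35 (-0.87 to 0.17). None of the 6 passed the threshold in either limma fit.

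Postn and Dpt, both dim, differed in how well their arrays held together. Periostin, a fasciclin-domain matrix protein made by activated fibroblasts, read 2.25, 2.25 and 2.26 in EGFP-high arrays, against 2.73, 2.58 and 2.88 in EGFP-low arrays. All EGFP-high arrays lay below all EGFP-low arrays, by at least 0.32. The difference was -0.48 (limits -0.96 to 0.004), or 0.719 of the EGFP-low level, with -0.49 and -0.47 in the within-set contrasts. By the column relations these contrasts are close wherever EGFP-high 1 and EGFP-high 3 are, so their closeness is not replication. The limma adjusted p was 0.841 with the array-set term and 0.0410 with population alone. Dermatopontin, which binds decorin and collagen, read 3.25, 2.997 and 2.75 in EGFP-high arrays, against 3.01, 3.16 and 3.61 in EGFP-low arrays. The ranges of Dpt overlapped, the difference was -0.26 (-0.89 to 0.37), and the within-set contrasts were 0.24 and -0.64.

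RefSeq gives Postn 2 promoters, of which the downstream one is shown because it holds a TATA box match in the usual place (GRCm38.p6, chr3:54360857-54361156, plus strand). The capitals mark TATAAA, beginning 26 bases before the annotated start, and no other searched motif occurred. In the other Postn window the only match was to CCAAT on the minus strand. Dpt, with TATAAA 13 bases inside the transcribed side, and Pdgfra, with no match, complete the 5 members that the promoter table lists.
Postn: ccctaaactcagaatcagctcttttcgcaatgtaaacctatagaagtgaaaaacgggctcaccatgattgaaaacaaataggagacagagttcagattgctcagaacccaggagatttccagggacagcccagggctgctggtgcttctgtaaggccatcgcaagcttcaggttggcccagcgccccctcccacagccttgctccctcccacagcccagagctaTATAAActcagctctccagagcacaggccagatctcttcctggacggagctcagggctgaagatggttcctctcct

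The 9 other matricellular and adhesion genes had 6 below 0 and 3 above, with a median of -0.10. Fibronectin, encoded by Fn1, was at 3.54, 3.51 and 3.47 in EGFP-high arrays, against 5.29, 6.44 and 4.25 in EGFP-low arrays. These did not overlap, and the difference was -1.82 (-3.10 to -0.54). Tenascin C, encoded by Tnc, was at -0.64 (-1.23 to -0.06). Sparc, a collagen-binding glycoprotein that was bright in every array, was at -0.16 (-0.61 to 0.30), and the procollagen C-proteinase Bmp1 at 0.13 (-0.32 to 0.59). None of these passed the limma threshold with either set of terms.

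Thy1 was the member with limits wholly above 0. It encodes a small GPI-anchored surface glycoprotein of fibroblasts, neurons and, in mice, T cells. It read 4.04, 3.94 and 3.83 in EGFP-high arrays, against 3.30, 3.33 and 3.59 in EGFP-low arrays. The lowest EGFP-high array was 0.24 above the highest EGFP-low array. The difference was 0.53 (limits 0.03 to 1.03), or 1.44 times the EGFP-low level, with 0.74 and 0.37 in the within-set contrasts. The limma adjusted p was 0.840 with the array-set term and 0.0451 with population alone. The limits spanned 0 without EGFP-high 1, EGFP-low 1, EGFP-high 3 or EGFP-low 2. In the fit over all probe sets they spanned 0 as well (-0.04 to 1.10). Of the T cell markers 3 of 5 were below 0, with summed linear values from 35.03 to 36.9 in EGFP-high and 36.5 to 39.1 in EGFP-low arrays. Cd3e, an invariant chain of the T cell receptor complex, averaged 2.12 in EGFP-high and 2.21 in EGFP-low arrays. Cd3d was at 0.31 (-0.16 to 0.78), Cd5 at -0.31 (-0.80 to 0.19) and Cd2 at -0.18 (-0.64 to 0.28). None of the 5 T cell markers had a mean above the median gene. Their part in the Thy1 difference was not tested.

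**Figure D3:**
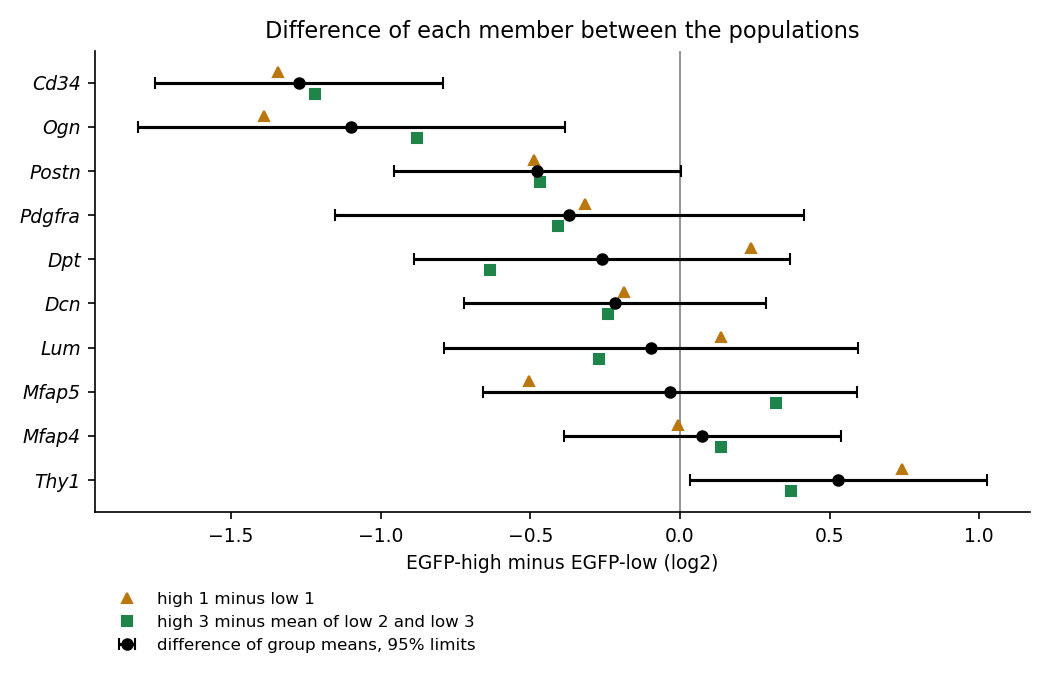
Difference of each member between the populations (EGFP-high minus EGFP-low, log2). Black points and bars are the difference of population means with 95% limits from limma with the array-set term, triangles are EGFP-high 1 minus EGFP-low 1, and squares are EGFP-high 3 minus the mean of EGFP-low 2 and EGFP-low 3. Limits leave out 0 for Cd34, Ogn and Thy1, and triangle and square lie on opposite sides of 0 for Dpt, Lum, Mfap5 and Mfap4.

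By their 95% limits, not adjusted for the number of genes, Cd34 and Ogn lay below 0 (2.89% of all genes did) and Thy1 above 0 (3.04%). The EGFP-high arrays lay below the EGFP-low arrays without overlap for 4 members, Cd34, Ogn, Postn and Dcn, beside 13.9% of all genes. They lay above without overlap for Thy1, beside 19.3% of all genes. A filter at the median of all genes' mean values (4.13) was passed by 3 members, Dcn, Ogn and Cd34, so the other 7 rest on dim probe sets and no detection call was used.

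Within the EGFP-low population 5 members shared 1 order of arrays. EGFP-low 2 was the highest and EGFP-low 3 the lowest array for Dcn, Lum, Ogn, Pdgfra and Cd34, beside 26.6% of all genes. By the column relations EGFP-low 1 lies midway between EGFP-low 2 and EGFP-low 3 where EGFP-high 1 equals EGFP-high 3. Near that case the order says only that EGFP-low 2 exceeded EGFP-low 3. That alone held for 6 of 10 members, beside 50.6% of all genes. EGFP-low 2 exceeded EGFP-low 3 by 1.17 for Pdgfra, 0.94 for Ogn, 0.91 for Lum, 0.41 for Dcn and 0.30 for Cd34. The same order held for 9 of 10 collagen genes and 11 of 15 leukocyte markers, but for 4 of 13 other fibroblast genes and 2 of 13 other small leucine-rich proteoglycan genes. Of the collagens, the type I chain Col1a2 read 2.94, 2.81 and 2.67 in EGFP-high arrays, against 5.76, 6.78 and 5.13 in EGFP-low arrays. Dpt, Postn, Thy1 and Mfap4 instead had their highest EGFP-low value on EGFP-low 3. The EGFP-low range was wider than the EGFP-high range for all 10 members and for 80.2% of all genes, and EGFP-high 2 is by the column relation never outside the other EGFP-high arrays.

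Other fibroblast genes were split between the populations. Of 13 measured, 7 were below 0 and 6 above, with a median of -0.01. The chemokine Cxcl12 had limits wholly below 0, at 4.44 ± 0.04 in EGFP-high and 5.15 ± 0.19 in EGFP-low arrays (SD, n = 3 each), a difference of -0.71 (-1.21 to -0.21). Limma called it with population alone (adjusted p 0.0261) and not with the array-set term (0.787). The transcription factor Tcf21 was at -0.40 (-1.06 to 0.27), the actin-severing protein gene Gsn at 0.35 (-0.13 to 0.84) and the intermediate filament gene Vim at 0.28 (-0.20 to 0.76). The 10 collagen genes had 6 below 0 and 4 above, from -3.08 to 0.30, with a median of -0.32. Col1a2 was at -3.08 (-4.10 to -2.06), and a further probe set of it, in the fit over all probe sets, was at -0.78 (-1.47 to -0.09). The first was kept as the brighter over all arrays (mean 4.35 against 4.24), although in EGFP-high arrays it was the dimmer (2.81 against 3.85). Col6a3 was at -0.42, Col5a2 at -0.32 and Col1a1 at -0.45, with limits that span 0. With population alone limma called Col1a2 (adjusted p 0.0206), Col6a3 (0.0467) and Col5a2 (0.0429), and with the array-set term no collagen gene.

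Among the lists of markers of other cell types, 1 gene in all passed the limma threshold with the array-set term. Of the leukocyte markers 14 of 15 were below 0, with a median of -0.65 and summed linear values from 186 to 196 in EGFP-high and 273 to 645 in EGFP-low arrays. Lyz2 (-3.77), Tyrobp (-1.81), C1qb (-1.22) and Fcer1g (-1.20), all genes of myeloid cells, had limits below 0. Of the theca and luteal steroidogenic genes 5 of 7 were below 0, with a median of -0.21, and 3 had limits below 0. Their sums ran from 869 to 1040 in EGFP-high and 1292 to 1797 in EGFP-low arrays. The brightest genes weigh most in these sums, in EGFP-low arrays Cyp11a1 (mean 8.76) and Star (8.74). Cyp11a1, the enzyme that opens steroid synthesis, was at -4.74 (limma adjusted p 0.0140 with the array-set term), the single gene called. A further Cyp11a1 probe set, in the fit over all probe sets, was at -0.17 (-0.84 to 0.50). Hsd3b1 was at -2.76, Fdx1 at -1.10 and Star at 0.33.

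Granulosa genes were below 0 in 7 of 9 cases, with sums from 161 to 226 in EGFP-high and 251 to 428 in EGFP-low arrays, and Nr5a2 (-2.29), Fst (-1.29), Fshr (-1.22) and Foxl2 (-0.65) had limits below 0. Adipocyte genes were below 0 in 6 of 7 cases, with sums from 56.1 to 67.2 in EGFP-high and 82.8 to 132.8 in EGFP-low arrays. Fabp4, at -2.54, was the 1 with limits below 0. Pparg (-0.98), Retn (-0.29) and Adipoq (0.26) had limits that span 0, and the EGFP-high arrays of Adipoq lay above without overlap. Of the 7, 1 had a mean above the median gene, and it was not Fabp4. Endothelial markers, which bear on Cd34, were below 0 in 5 of 12 cases with a median of 0.08. Their sums ran from 429 to 492 in EGFP-high and from 391.7 to 427 in EGFP-low arrays. Linear sums weigh the brightest genes most, here Esam and Kdr, the latter chosen after its values were seen (0.14, -0.34 to 0.62). Of the 12 markers, 3 passed the filter at the median of all genes' mean values. Emcn was at -0.61 with limits below 0, and Cdh5 (-0.69), Flt1 (0.29) and Esam (0.40) had limits that span 0. Pericyte and smooth muscle markers were below 0 in 6 of 12 cases, with a median of 0.02. Their sums, weighted to bright genes such as Myl9, ran from 493 to 551 in EGFP-high and 365 to 432 in EGFP-low arrays. Myl9 was at 1.10 with limits above 0, and Mcam (0.38), Des (-0.38) and Abcc9 (-0.35) had limits that span 0. An array has no true 0, so no marker could be read as absent. The part of these cell types in the Cd34 and Ogn differences was not tested.

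**Figure D4:**
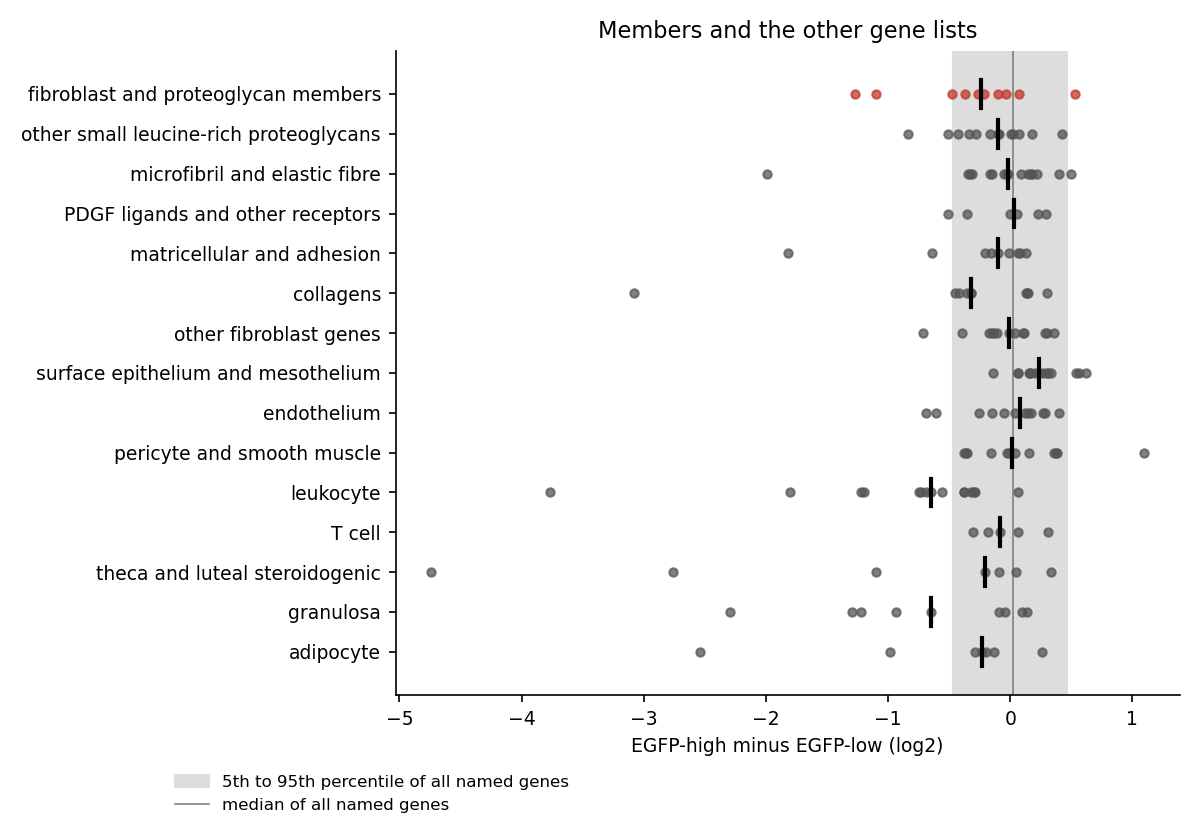
Differences (EGFP-high minus EGFP-low, log2) of the 10 members in red and of the other gene lists in grey, 1 point per gene, with the median of each list as a black bar. The grey band runs from the 5th to the 95th percentile of all named genes (-0.47 to 0.47). Members spread from -1.27 to 0.53 around a median of -0.24, while leukocyte and granulosa genes have medians of -0.65.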

How the data were processed

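Affymetrix Mouse Gene ST 2.0 arrays were hybridised with NuGEN-amplified cDNA from total RNA, per the labels. The authors deposited log2 values of 41345 probe sets, made with Affymetrix Expression Console and RMA per the submitters' processing notes; versions and genome build are not given in the sources used here. A table that the authors deposited holds a linear ratio of high over low and a signed fold score for 1134 probe sets at 1.5-fold or more, with its p-values listed as missing, per the file headers. No column was without a sample (0).

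Gene names came from the platform annotation (23521 with 1 symbol, 1820 with several, 16004 unlisted), and the brightest per gene was kept. No filter or further normalization was applied. Limma 3.58.1 in R 4.3.3 (lmFit, eBayes, two-sided, Benjamini-Hochberg over 22180 genes, threshold 0.05) was fitted with population and array set, leaving 2 residual degrees of freedom. Of 201 ways to part the arrays, 1 gave the 2 column relations (tolerance 2e-04) on least-squares removal. The fit was tested on simulated data. Limits are 95% and unadjusted, and the number of arrays limits the precision.

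Members and lists were chosen with earlier results of these data known. Named genes are the members, all other measured proteoglycan, PDGF and Cd34-family genes, Lgr5, and up to 4 genes per other list with the smallest p. Of the members 5 matched RefSeq promoters. Alternatives were population alone, the replicate number as a block, median centring, quantile normalization, a brightness filter, a variance trend, averaged probe sets, all probe sets, and each array left out.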

Additional observations from a re-analysis of the deposited data

How the results depend on the processing

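The difference of a member can move only with median centring, quantile normalization or an array other than EGFP-high 2 left out, and leaving out EGFP-high 1 or EGFP-low 1 is the same fit. The other alternatives keep the difference and change only its error and adjusted p. Cd34 ranged from -1.36 to -1.21 and Ogn from -1.39 to -0.88. With population alone limma called 1479 genes and 3 members (1 and 0 with the array-set term): Cd34 (adjusted p 0.0151), Postn (0.0410) and Thy1 (0.0451). The limits of Cd34 were then -1.50 to -1.04, and that fit has 4 residual degrees of freedom in place of 2. Averaged probe sets, or all probe sets, left 0 genes called (1337 and 1987 at an unadjusted p under 0.05). Leaving out arrays gave 1 to 23 genes, 23 without EGFP-high 3 and 3 without EGFP-low 3, and 0 members throughout (1 to 4 at an unadjusted p under 0.05). Mfap5 turned with median centring (0.023) and quantile normalization (0.017), and ranged from -0.50 to 0.32 over arrays left out, positive without EGFP-high 1 or EGFP-low 1 (0.32) and without EGFP-low 2 (0.030). Without EGFP-high 3, Lum was 0.14, Mfap4 -0.0081 and Dpt 0.24 (-0.64 at the lowest, without EGFP-high 1 or EGFP-low 1), and without EGFP-low 2 Lum was 0.16. For these reversals near 0 the cause was not tested. The replicate number as a block called 4 genes and 0 members. No label ties equal numbers together. Deviations from population means correlated at -1 for number 1 and -0.295 for number 3, and could not be computed for number 2. The column relations fix the first and constrain the second, so these values cannot show whether the numbers pair the arrays. Median centring moved the median difference of all genes by 0.06.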
